A study of Mus musculus with 27 samples.

Results

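The interferon response genes are transcribed in most cells when interferons bind their receptors, and their products sense foreign RNA and DNA, block viral replication, attack intracellular vacuoles and load peptides for antigen presentation. Type I and type III interferons act through the factor ISGF3, which holds Stat2 and Irf9 and binds a promoter motif called ISRE. Interferon gamma acts on genes that carry a motif called GAS. In the liver, hepatocytes, Kupffer cells and sinusoidal endothelial cells all carry receptors of type I interferon and interferon gamma. They keep a low level of the transcripts of interferon response genes without infection. The set was a fixed list of 34 genes, of 18820 genes named on the array, described by the probe set of highest mean value of each. A probe set of their own was held by 31 genes, and all 31 lay above an intensity of 20 on each of the 27 arrays. Igtp and Irgm2 were named together on 1 probe set and so could not be told apart, and no probe set was named for Ifi44 alone.

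The livers came from 27 C57BL/6J males, each on an Affymetrix array of its own. INT-fed mice (n = 7) alternated weekly between ad libitum feeding of a medium fat diet and 40% calorie restriction, and were sacrificed in a week of ad libitum feeding. CR-fed mice (n = 6) received the AIN-93W-CR diet at 30% restriction, MF-fed mice (n = 7) the medium fat diet with 25% of energy from fat, and C-fed mice (n = 7) AIN-93W ad libitum. In all of them the diet began at 9 weeks of age and ended at 12 months. Each mouse was fasted for 4 h, gavaged with 0.5% carboxymethyl cellulose and fasted for a further 6 h. Values are log2 intensities, and a gene is said to be called where limma's p, adjusted over the 13603 genes above the intensity minimum, was under 0.05. All 8 hepatocyte markers looked for were far above that minimum, with a mean log2 value of 13.14 in INT-fed, 13.25 in CR-fed, 13.04 in MF-fed and 13.14 in C-fed mice. Arrays differed a little in spread by replicate number: the interquartile range averaged 3.63 log2 units in the 16 arrays numbered 1 to 4 in the labels and 3.72 in the 11 numbered 5 to 7 (SD 0.033 in both). The ranges of both sets overlapped, no label names a batch, and the CR diet has 4 mice in the first set and 2 in the second.

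Of the 34 genes, 26 had a RefSeq promoter window (GRCm38.p6, 250 bases before to 50 bases after the start). Windows were searched on both strands for an ISRE-type motif, spelled GAAA, any 2 bases and GAAA again, and a GAS-type motif, spelled TTC, any 3 bases and GAA, which may overlap each other and themselves. The ISRE-type letters stood in 14 of the 26 genes, against 3.99% of all 27025 genes with a window, and the GAS-type letters in 8, against 9.55%. Printed here are 4 windows of genes that differed between CR-fed mice and the other diets, with the matched letters in capitals: Ifit1 (chr19:34640639-34640938, plus strand), Irgm1 (chr11:48871371-48871670, minus strand) and Gbp7 (chr3:142530086-142530385, plus strand), which were lower in CR-fed mice, and Bst2 (chr8:71537423-71537722, minus strand), which was higher. Each holds at least 1 ISRE-type match, read as TTTC runs where it lies on the other strand. Gbp7 holds 2 GAS-type matches besides, and in Bst2 a GAS-type match runs into the first of 2 overlapping ISRE-type matches.
Ifit1: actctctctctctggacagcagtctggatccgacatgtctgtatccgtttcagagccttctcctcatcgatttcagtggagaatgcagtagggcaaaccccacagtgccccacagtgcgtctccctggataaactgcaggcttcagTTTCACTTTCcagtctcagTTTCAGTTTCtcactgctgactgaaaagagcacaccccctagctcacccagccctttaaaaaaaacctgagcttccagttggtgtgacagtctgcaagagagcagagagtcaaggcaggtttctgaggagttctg
Irgm1: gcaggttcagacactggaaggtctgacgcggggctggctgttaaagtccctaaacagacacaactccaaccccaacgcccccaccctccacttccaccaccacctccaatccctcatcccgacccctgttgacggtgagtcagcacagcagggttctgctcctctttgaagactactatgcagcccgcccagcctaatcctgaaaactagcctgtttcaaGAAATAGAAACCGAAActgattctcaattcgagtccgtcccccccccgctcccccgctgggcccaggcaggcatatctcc
Gbp7: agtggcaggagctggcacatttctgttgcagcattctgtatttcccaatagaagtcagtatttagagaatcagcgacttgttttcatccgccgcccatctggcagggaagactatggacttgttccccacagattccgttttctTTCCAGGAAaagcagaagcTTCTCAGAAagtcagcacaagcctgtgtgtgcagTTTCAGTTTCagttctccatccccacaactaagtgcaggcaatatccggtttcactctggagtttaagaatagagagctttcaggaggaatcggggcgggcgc
Bst2: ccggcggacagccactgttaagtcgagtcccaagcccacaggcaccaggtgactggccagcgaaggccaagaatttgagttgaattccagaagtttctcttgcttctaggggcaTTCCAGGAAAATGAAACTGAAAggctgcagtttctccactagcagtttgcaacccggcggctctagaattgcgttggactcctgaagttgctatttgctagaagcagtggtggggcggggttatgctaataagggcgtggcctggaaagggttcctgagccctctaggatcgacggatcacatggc
Of the 12 genes called lower in CR-fed mice against C- or MF-fed mice, 9 had a window and 4 of them an ISRE-type match (Rsad2 is the fourth). Of the other 20 listed genes, 15 had a window and 9 a match. These 20 include Igtp, Irgm2 and Ifi44, which had no probe set of their own and were not tested. All of these untested genes have a window, and those of Igtp and Irgm2 hold a match. Both genes called higher, Bst2 and Irf7, had a window, and the letters were found in that of Bst2. The windows of Tap1 and Psmb9 (chr17:34187306-34187605 and chr17:34187281-34187580) overlap, since both genes start from the same stretch in opposite directions, and neither holds either motif.

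In CR-fed mice most of the genes that were called against C were lower. By role, these were 3 of 5 GTPases, 2 of 3 antigen processing genes, 4 of 15 antiviral effectors, 1 of 4 sensors (Dhx58) and 1 of 4 transcription factors (Irf9), and Irf7 and Bst2 were higher. Against C-fed mice, 13 of 31 genes were called (41.9%), 11 lower and 2 higher. Of all genes tested, 17.5% were called (9.05% lower and 8.46% higher). The median log2 fold change was -0.26, against 0.0038 for all genes, and 24 of 31 were negative. Against MF-fed mice, 13 were called, 12 lower and 1 higher, beside 19.8% of all genes (11.2% lower and 8.57% higher). The median was -0.30, and 27 values were negative. INT-fed mice differed from CR-fed mice in 11 genes, 9 higher and 2 lower in INT, beside 15.0% of all genes (8.37% higher and 6.62% lower). The median was 0.22. These 3 comparisons share the CR-fed mice, and 10 genes were called in all of them, 14 in at least 1 and 17 in none. The matching counts over all genes were not taken. These numbers therefore only describe the set and do not set it apart from other genes. Between INT- and MF-fed mice, INT- and C-fed mice, and MF- and C-fed mice limma called 0 of the 31, as it called 0 of all genes (0%) in each. At an unadjusted p under 0.05 there were 2, 0 and 1 of the 31 and 1479, 922 and 464 of all genes. By the F test over the 4 diets, 13 of 31 were called, beside 16.7% of all genes. In whole liver, fewer cells of a type and less RNA per cell cannot be told apart.

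**Figure D1:**
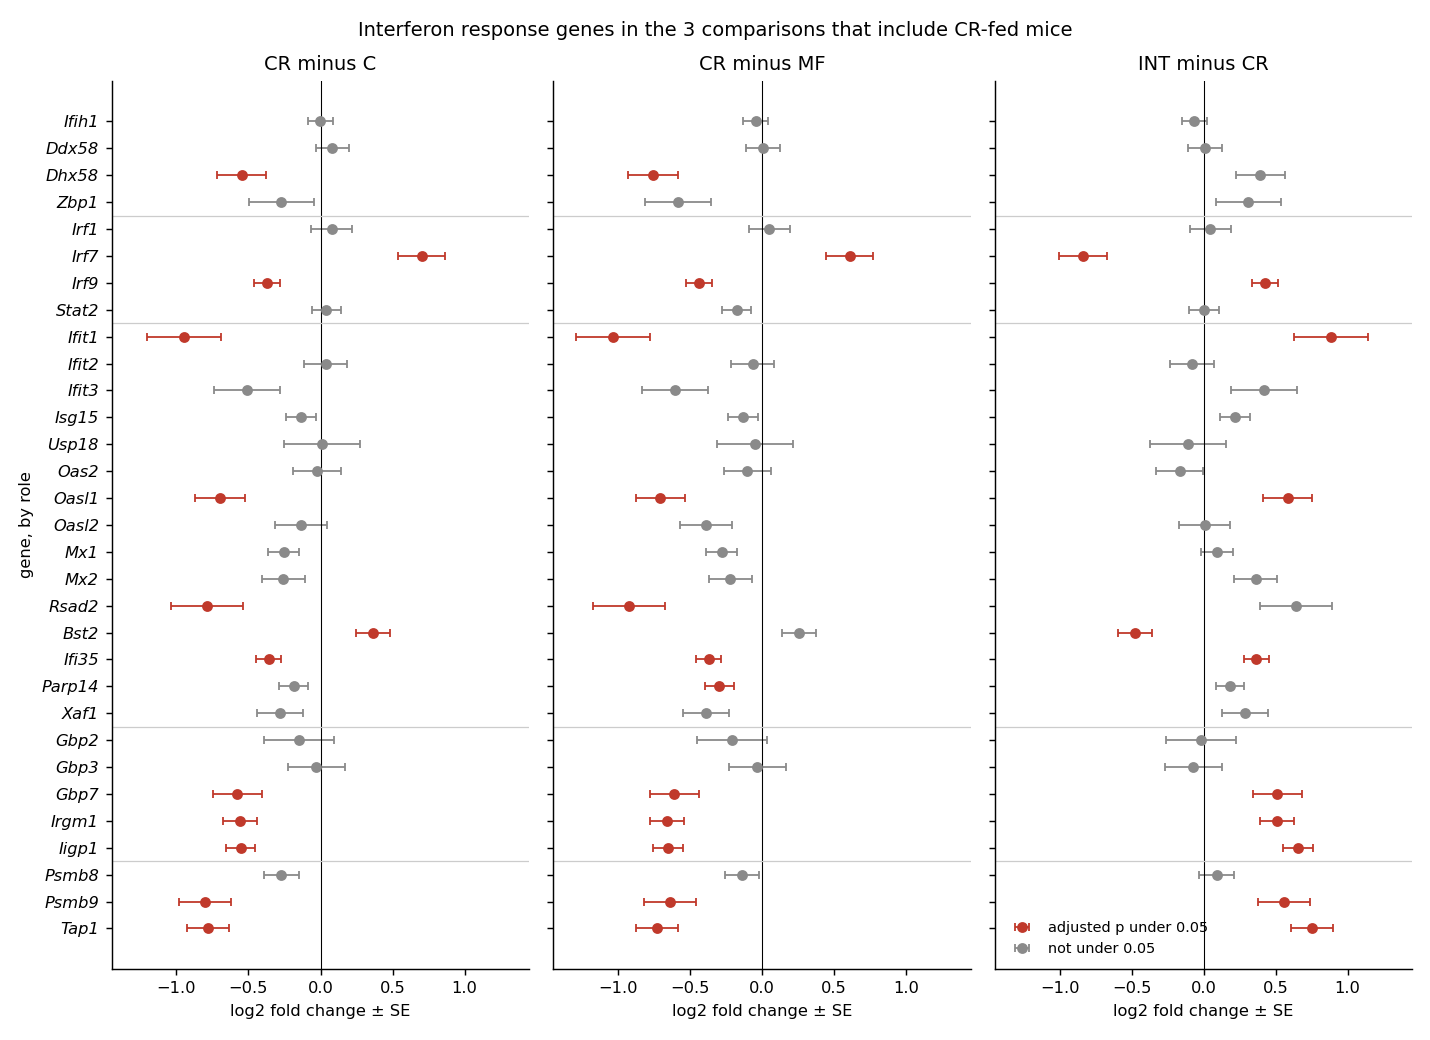
Log2 fold change (x axis, ± standard error of the limma fit) of each of the 31 genes (y axis, grouped by role: sensors, transcription factors, antiviral effectors, GTPases, antigen processing) in the 3 comparisons that include CR-fed mice. Most called genes lie below 0 in CR minus C and CR minus MF and above 0 in INT minus CR, with Irf7 at 0.70, 0.61 and -0.84 and Bst2 at 0.36, 0.26 and -0.48 on the other side.

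Apart from Parp14 between CR and MF, the called genes kept their direction in both sets of arrays, but most were further from 0 in the first, and few passed the test in the second. As the genes were called on both sets together, their shared direction is in part fixed by that choice. Of all 31 genes, 29 were negative for CR minus C in the first set and 15 in the second. For CR minus MF, 29 and 14 were negative, and for INT minus CR, 26 and 17 were positive. All 13 genes called between CR- and C-fed mice had the same sign within replicates 1 to 4 and within replicates 5 to 7, and 11 of them were further from 0 in the first set. Within replicates 1 to 4, limma called 12 of 31 genes between CR and C (all lower, 9.01% of all genes), 15 between CR and MF (all lower, 14.5%) and 8 between INT and CR (7 higher and 1 lower, 7.63%). Within replicates 5 to 7, with 2 CR-fed mice, it called 1, 1 and 2 genes (Irf7 in each, with Bst2 between INT and CR), beside 3.65%, 2.43% and 2.55% of all genes. Over all 31 genes the median log2 fold change between CR and C was -0.38 in the first set and 0.016 in the second, between CR and MF -0.45 and 0.044, and between INT and CR 0.21 and 0.011. Tested as a difference between the sets in 1 limma fit, a test added after these values were seen, 0 of 31 genes and 0% of all genes were called in each of the 3 comparisons. For CR minus C, 9 genes had an unadjusted p under 0.05 (5.60% of all genes), the difference was positive in all 31, and its median was 0.48, against 0.0054 over all genes. For CR minus MF there were 11 (6.24%), and the median was 0.57. For INT minus CR there was 1 (4.44%), the difference was negative in 27 of 31, and its median was -0.33, against -0.016 over all genes. These counts of genes are not counts of independent observations, since the genes moved together between livers (median r 0.55). Of the 2 CR-fed mice of the second set, replicate 5 was the highest CR-fed mouse in 25 genes. The mean of the set, centred over all livers, was 0.25 in replicate 5 and -0.067 in replicate 6. The cause of the difference between the sets was not tested.

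**Figure D2:**
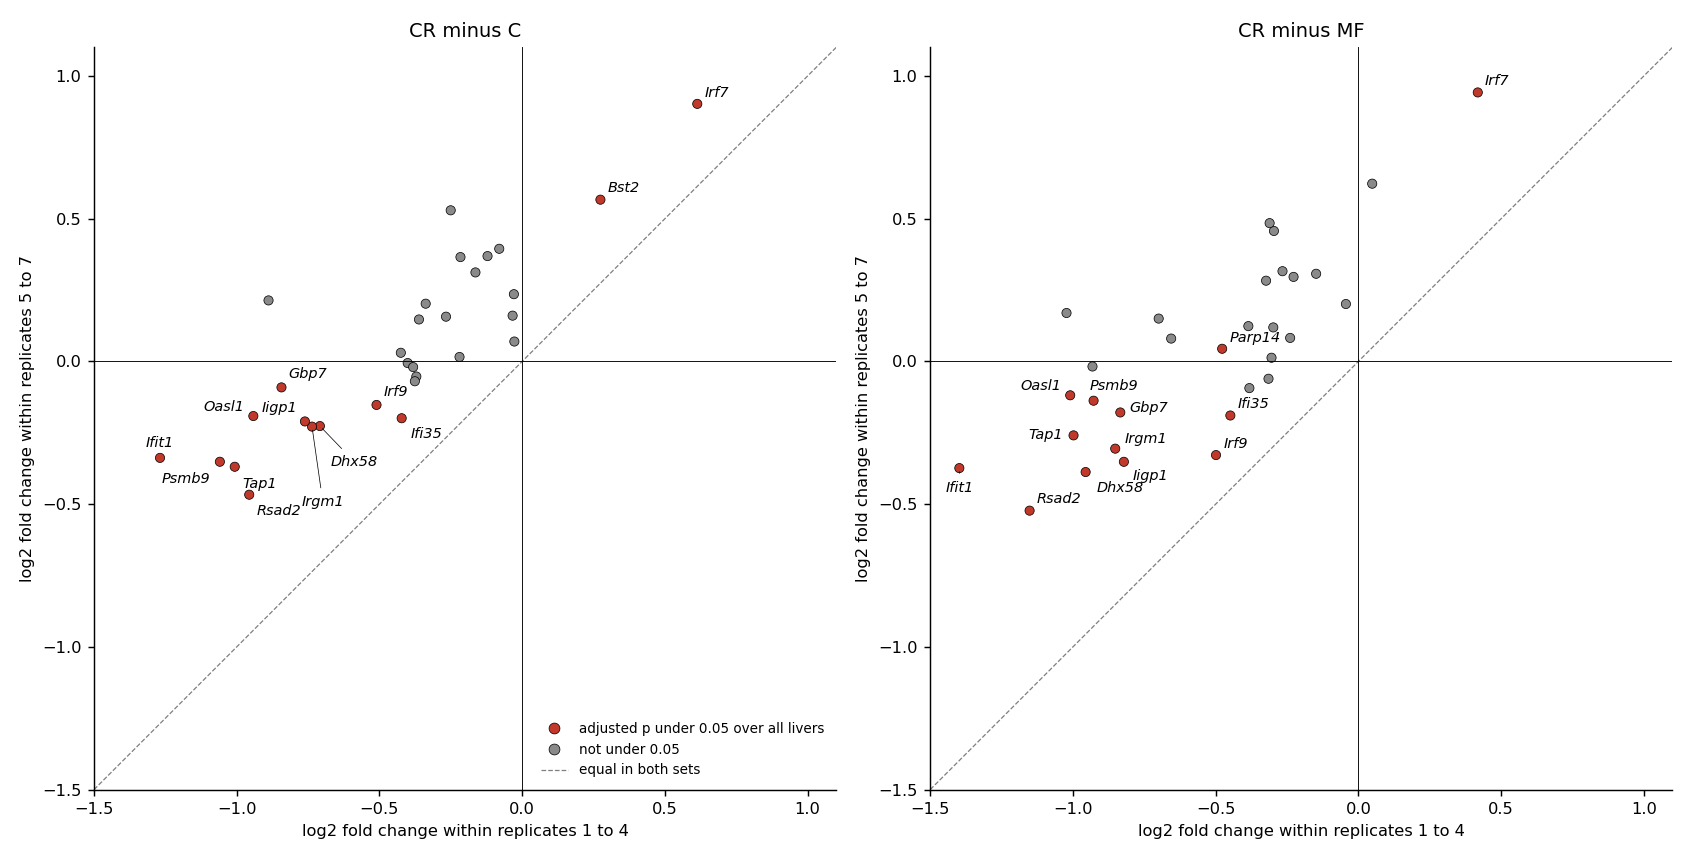
Log2 fold change of each of the 31 genes within replicates 5 to 7 (y axis) against that within replicates 1 to 4 (x axis), for CR minus C (left) and CR minus MF (right), with genes called over all livers in red. All 31 genes lie above the dashed line of equality in both panels, and in CR minus C the lowest called gene is at -1.27 (Ifit1) in the first set and at -0.47 (Rsad2) in the second. The genes move together and are not independent of each other, and the second set holds few CR-fed mice.

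The immunity-related GTPases, which gather on the vacuoles of intracellular parasites and bacteria, were lower in CR-fed mice in both of the members that could be measured alone. For Iigp1, a GTPase that disrupts such vacuoles, the lowest, median and highest log2 values were 10.14, 10.49 and 10.58 in INT-fed, 9.46, 9.71 and 10.16 in CR-fed, 10.27, 10.37 and 10.56 in MF-fed, and 9.98, 10.28 and 10.53 in C-fed mice. No CR-fed mouse reached an MF-fed one, and only CR replicate 5 lay above the lowest INT- and C-fed mice. The log2 fold change was -0.65 ± 0.10 against MF (adjusted p = 4.67e-05), -0.56 ± 0.10 against C (adjusted p = 0.000348) and 0.66 ± 0.10 for INT against CR (adjusted p = 5.23e-05), where ± is the standard error of limma here and below. Irgm1, which regulates the other GTPases of its family and autophagy, had 8.23, 8.56 and 9.01 in INT-fed, 7.62, 8.03 and 8.38 in CR-fed, 8.48, 8.69 and 9.00 in MF-fed, and 8.44, 8.57 and 8.84 in C-fed mice. All 6 CR-fed mice lay below all 14 MF- and C-fed mice, with log2 fold changes of -0.66 ± 0.12 against MF (adjusted p = 0.000189) and -0.56 ± 0.12 against C (adjusted p = 0.0012). INT was 0.51 ± 0.12 above CR (adjusted p = 0.00328), and 3 of the INT-fed mice lay below the highest CR-fed mouse. Irgm1 was the only gene of the set that was called between CR and C with no overlap (3.23%, beside 6.53% of all genes). Between CR and MF there were 3, Irgm1, Iigp1 and Irf9 (9.68%, beside 6.86%), and between INT and CR 1, Irf9 (beside 6.01%).

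Of the 3 guanylate-binding proteins, larger GTPases of the same defence, 1 was called. Gbp7 was lower in CR-fed mice, at 7.54 ± 0.39, against 8.15 ± 0.32 in MF-fed and 8.11 ± 0.21 in C-fed mice (SD) (log2 fold changes -0.61, adjusted p = 0.0109, and -0.58, adjusted p = 0.0178), and INT was 0.51 above CR (adjusted p = 0.0397). Its call between CR and C was lost without CR replicate 2 (adjusted p = 0.0585) and that between INT and CR when any 1 of 7 mice was left out (up to adjusted p = 0.115 without CR replicate 2). Gbp2 and Gbp3 were not called in any comparison, with log2 fold changes of -0.15 and -0.029 for CR against C. Gbp2 was among the genes that varied most between mice of 1 diet, from 5.92 to 7.45 in INT-fed mice and from 6.18 to 7.77 in MF-fed mice.

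Of the 3 genes of antigen processing for MHC class I, 2 were lower in CR-fed mice. Tap1, a subunit of the transporter that brings peptides into the endoplasmic reticulum, had a lowest, median and highest log2 value of 7.39, 7.77 and 8.32 in INT-fed, 6.65, 7.06 and 7.66 in CR-fed, 7.58, 7.71 and 8.14 in MF-fed, and 7.63, 7.89 and 8.03 in C-fed mice. Of the CR-fed mice, only replicate 5 reached the range of the MF- and C-fed mice. The log2 fold change was -0.73 ± 0.15 against MF (adjusted p = 0.000652), -0.78 ± 0.15 against C (adjusted p = 0.000359) and 0.76 ± 0.15 for INT against CR (adjusted p = 0.000566). Psmb9, a catalytic subunit of the immunoproteasome that is transcribed away from Tap1 from the stretch named above, had 7.49, 8.07 and 8.61 in INT-fed, 7.05, 7.36 and 8.19 in CR-fed, 7.70, 8.17 and 8.29 in MF-fed, and 7.81, 8.17 and 8.80 in C-fed mice. It was lower in CR by 0.64 ± 0.18 against MF and 0.80 ± 0.18 against C (adjusted p = 0.0116 and 0.00204). The mice overlapped, with CR replicate 5 inside the ranges of all other diets and CR replicate 1 inside those of INT and MF. INT was 0.56 ± 0.18 above CR (adjusted p = 0.0332). That call was lost when any 1 of 8 mice was left out (up to adjusted p = 0.0922 without CR replicate 2). Psmb8, the catalytic subunit that joins Psmb9 in the same particle, was not called: its mean was 7.61 ± 0.28 (SD) in CR-fed and 7.88 ± 0.19 in C-fed mice. Before adjustment, limma's p between CR and C was under 0.05 in all 3 genes, Psmb8 included.

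Of the transcription factors, Irf9 was lower and Irf7 higher in CR-fed mice, and Stat2 and Irf1 were not called. Irf9, the DNA-binding part of ISGF3, had a lowest, median and highest log2 value of 8.79, 8.94 and 9.42 in INT-fed, 8.42, 8.59 and 8.71 in CR-fed, 8.81, 9.00 and 9.17 in MF-fed, and 8.62, 9.00 and 9.09 in C-fed mice. The CR-fed mice lay below every INT- and MF-fed mouse, and 1 C-fed mouse (replicate 6) fell within their range. The log2 fold change was -0.44 ± 0.09 against MF (adjusted p = 0.000753), -0.37 ± 0.09 against C (adjusted p = 0.0041) and 0.43 ± 0.09 for INT against CR (adjusted p = 0.00126). Irf7, which drives the transcription of the interferon genes themselves, ran the other way, with 8.08, 8.32 and 8.66 in INT-fed, 8.31, 9.28 and 9.53 in CR-fed, 8.11, 8.50 and 9.18 in MF-fed, and 8.27, 8.39 and 8.85 in C-fed mice. Of the CR-fed mice, 5 lay at 9.21 or above, higher than all other mice, and the remaining one (replicate 3) lay within the ranges of the other diets. Its log2 fold change was 0.61 ± 0.16 against MF (adjusted p = 0.00876), 0.70 ± 0.16 against C (adjusted p = 0.00305) and -0.84 ± 0.16 for INT against CR (adjusted p = 0.000632). Irf7 was called within replicates 5 to 7 (0.90 against C and 0.94 against MF, adjusted p = 0.0294 and 0.0282), but not within replicates 1 to 4 (0.61 and 0.42, adjusted p = 0.108 and 0.246), which hold CR replicate 3. Stat2, the partner of Irf9, had means of 8.73 ± 0.12 in INT-fed, 8.73 ± 0.09 in CR-fed, 8.91 ± 0.19 in MF-fed and 8.69 ± 0.29 in C-fed mice (SD). Irf1, which acts on GAS- and ISRE-bearing genes downstream of interferon gamma, had a log2 fold change of 0.078 against C and 0.050 against MF in CR-fed mice (adjusted p = 0.772 and 0.851).

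**Figure D3:**
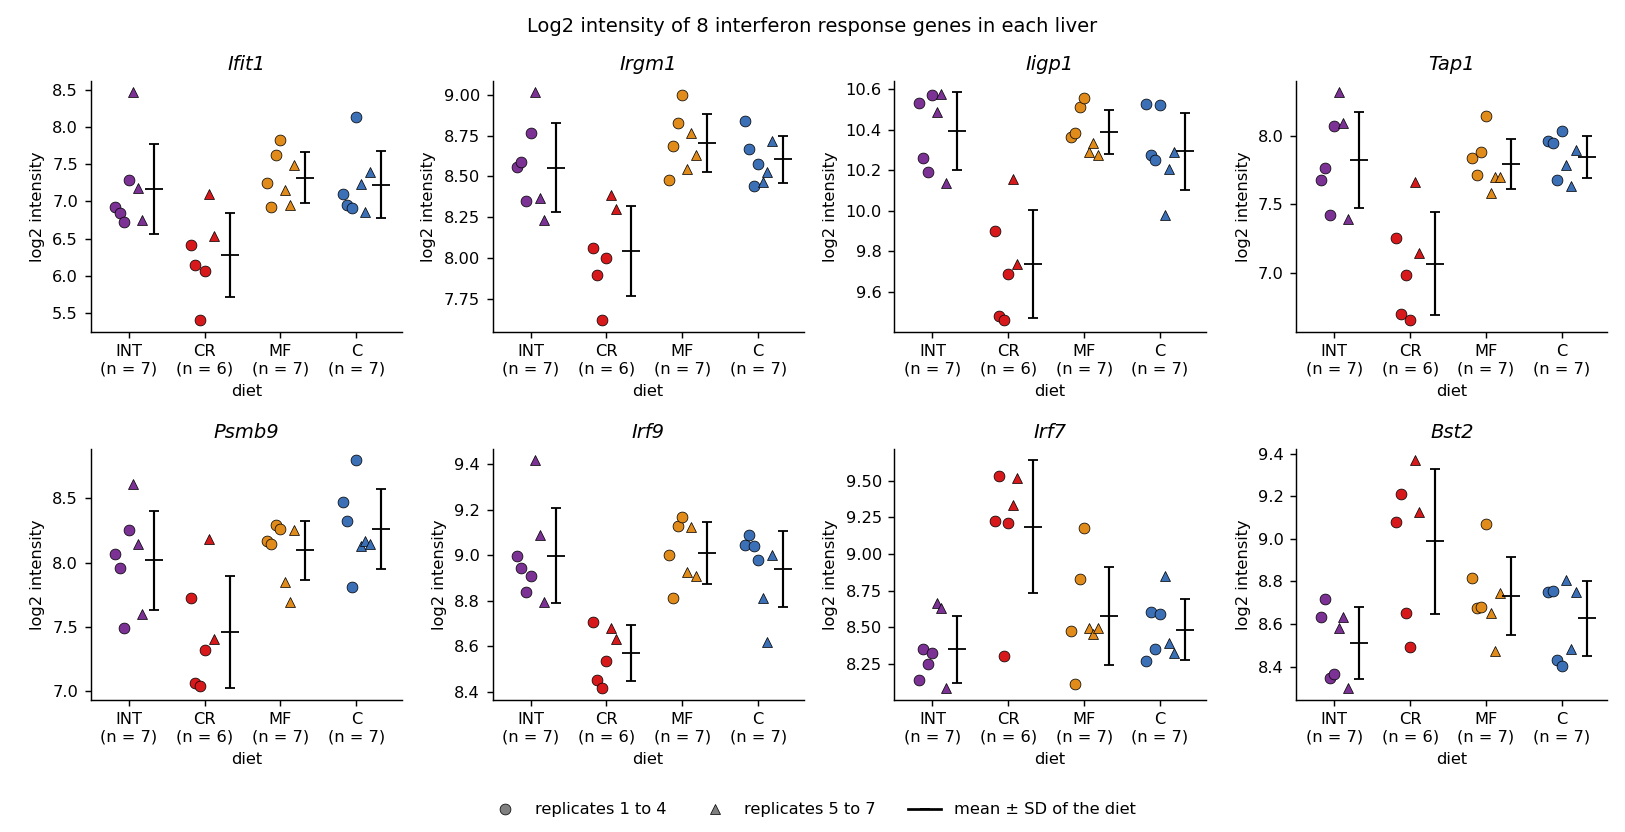
Log2 intensity (y axis) of 8 genes in each of the 27 livers by diet (x axis), circles for replicates 1 to 4 and triangles for replicates 5 to 7, with the mean ± SD of each diet beside them. In Ifit1, Irgm1, Iigp1, Tap1, Psmb9 and Irf9 the CR-fed mice lie lowest on average, in Irf7 and Bst2 highest, and CR replicate 5 is the highest CR-fed mouse in Ifit1, Irgm1, Iigp1, Tap1, Psmb9 and Bst2.

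Of the 15 antiviral effectors with a probe set of their own, 4 were called lower and 1 higher in CR-fed mice against C (9.05% and 8.46% of all genes), and 5 lower and 0 higher against MF (11.2% and 8.57%). Ifit1, which binds viral RNA whose cap lacks the methylation of host RNA and blocks its translation, had the largest fold change of the 31 genes against both C and MF. Its lowest, median and highest log2 values were 6.73, 6.92 and 8.46 in INT-fed, 5.40, 6.28 and 7.10 in CR-fed, 6.92, 7.25 and 7.82 in MF-fed, and 6.85, 7.10 and 8.14 in C-fed mice. Of the CR-fed mice, 5 lay below every other mouse, and replicate 5 lay within the ranges of the other diets. The log2 fold change was -1.04 ± 0.26 against MF (2.05-fold lower, adjusted p = 0.00457), -0.95 ± 0.26 against C (1.93-fold lower, adjusted p = 0.0102) and 0.89 ± 0.26 for INT against CR (adjusted p = 0.0182). The last call was lost without CR replicate 3 (adjusted p = 0.0623). Its neighbours on chromosome 19 did not pass the test: Ifit3 had -0.51 against C and -0.60 against MF, with standard deviations of 0.60 in CR-fed, 0.35 in MF-fed and 0.40 in C-fed mice, and Ifit2 had 0.035 and -0.066.

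Rsad2, known as viperin, which makes a nucleotide that stops viral polymerases, had 6.91, 7.16 and 8.10 in INT-fed, 6.48, 6.65 and 7.17 in CR-fed, 6.86, 7.73 and 8.26 in MF-fed, and 7.09, 7.27 and 8.65 in C-fed mice. The ranges overlapped in each pair of diets. It was lower in CR by 0.92 ± 0.25 against MF (adjusted p = 0.00855) and 0.79 ± 0.25 against C (adjusted p = 0.0267). The second call was lost when any 1 of 5 mice was left out (up to adjusted p = 0.07 without C replicate 4). Rsad2 was not called between INT and CR (0.64, adjusted p = 0.0822). Oasl1, which in mouse cells restrains the translation of Irf7, had 7.33, 7.73 and 8.25 in INT-fed, 6.66, 6.99 and 7.86 in CR-fed, 7.55, 7.76 and 8.15 in MF-fed, and 7.39, 7.84 and 8.13 in C-fed mice. CR replicate 5, at 7.86, lay within the ranges of all other diets, and CR replicate 6 within those of INT and C. The log2 fold change was -0.71 ± 0.17 against MF, -0.70 ± 0.17 against C and 0.58 ± 0.17 for INT against CR (adjusted p = 0.00389, 0.00479 and 0.0201). The last call was lost when any 1 of 4 mice was left out (up to adjusted p = 0.0631 without CR replicate 3). Its paralog Oasl2 and Oas2 were not called, at -0.14 and -0.024 for CR against C.

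Bst2, also called tetherin, holds budding enveloped viruses at the cell surface and was the second gene that was higher in CR-fed mice. Its lowest, median and highest log2 values were 8.30, 8.58 and 8.72 in INT-fed, 8.49, 9.10 and 9.37 in CR-fed, 8.47, 8.68 and 9.07 in MF-fed, and 8.40, 8.75 and 8.81 in C-fed mice. CR replicates 3 and 4 lay within the range of the other diets, and the other 4 above every other mouse. INT lay below CR by a log2 fold change of -0.48 ± 0.12 (adjusted p = 0.00576), called within replicates 5 to 7 (-0.74, adjusted p = 0.0242) and not within replicates 1 to 4 (-0.34, adjusted p = 0.204). The difference of 0.36 ± 0.12 between CR and C (adjusted p = 0.0327) was lost when any 1 of 7 mice was left out (up to adjusted p = 0.0938 without CR replicate 5), and that of 0.26 against MF was not called (adjusted p = 0.132).

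Ifi35, an interferon-induced protein that binds other signalling proteins, varied least between mice of 1 diet. It had 7.74, 8.04 and 8.27 in INT-fed, 7.39, 7.64 and 7.95 in CR-fed, 7.91, 8.03 and 8.28 in MF-fed, and 7.90, 8.02 and 8.23 in C-fed mice, so that the highest CR-fed mice overlapped with the lowest of the others. The log2 fold change was -0.37 ± 0.09 against MF, -0.36 ± 0.09 against C and 0.37 ± 0.09 for INT against CR (adjusted p = 0.0026, 0.00381 and 0.00382). Parp14, an ADP-ribosyltransferase, was called against MF alone (-0.30 ± 0.10, adjusted p = 0.0349). The call was lost when any 1 of 6 mice was left out (up to adjusted p = 0.0994 without CR replicate 2), and the value was 0.044 within replicates 5 to 7. The effectors that were called nowhere were Ifit2, Ifit3, Isg15, Usp18, Oas2, Oasl2, Mx1, Mx2 and Xaf1. Mx1, of which C57BL/6 mice make no working protein, had means of 4.67 in INT-fed, 4.58 in CR-fed, 4.86 in MF-fed and 4.83 in C-fed mice. Isg15, a ubiquitin-like modifier, lay low on the array, between 4.57 and 5.26 in all livers, and Usp18, the enzyme that removes it, had means of 8.15 ± 0.51 in INT-fed, 8.26 ± 0.63 in CR-fed, 8.31 ± 0.50 in MF-fed and 8.25 ± 0.41 in C-fed mice (SD).

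Of the 4 sensors, only Dhx58 was called. Dhx58 (LGP2), which binds double-stranded RNA and tunes the signal of Ifih1, had 6.75, 7.09 and 7.42 in INT-fed, 6.14, 6.57 and 7.36 in CR-fed, 7.00, 7.49 and 8.01 in MF-fed, and 6.89, 7.22 and 7.57 in C-fed mice. It was lower in CR by 0.76 ± 0.17 against MF (adjusted p = 0.00204) and 0.55 ± 0.17 against C (adjusted p = 0.0259). The second call was lost when any 1 of 4 mice was left out (up to adjusted p = 0.0874 without CR replicate 2). Between INT and CR it was not called (0.39, adjusted p = 0.128). Ifih1 (MDA5), the sensor of long double-stranded RNA, had the same mean of 8.80 in CR- and C-fed mice but a standard deviation of 0.29 in CR-fed against 0.043 in C-fed mice, with CR replicate 3 lowest (8.43) and CR replicate 5 highest (9.26) of all livers. Ddx58 (RIG-I), which senses RNA ends, and Zbp1, a sensor of nucleic acids in the Z form, were not called (0.083 and -0.27 for CR against C).

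The livers also varied within each diet, and the 31 genes tended to do so together. The standard deviation between mice of 1 diet had a median of 0.29 log2 units over the 31 genes, against 0.16 over all genes tested, and was above that median in 29 of the 31. It was largest in Usp18 (0.51), Ifit1 (0.50), Rsad2 (0.48), Gbp2 (0.47), Ifit3 (0.45) and Zbp1 (0.44), and smallest in Ifi35, Ifih1 and Irf9 (each 0.16). By diet the median was 0.27 in INT-fed, 0.32 in CR-fed, 0.23 in MF-fed and 0.24 in C-fed mice, against 0.14, 0.15, 0.16 and 0.15 over all genes. A few mice stood at the ends for most of the genes. INT replicate 5 was the highest INT-fed mouse in 26 genes, CR replicate 5 the highest CR-fed mouse in 25 and MF replicate 4 the highest MF-fed mouse in 23, while CR replicate 3 was the lowest CR-fed mouse in 23 and the lowest of all 27 livers in 19. Taken as the mean over the genes after centring each gene on its mean, the livers lay between -0.24 and 0.44 in INT-fed, between -0.58 and 0.25 in CR-fed, between -0.18 and 0.53 in MF-fed, and between -0.18 and 0.27 in C-fed mice. All 4 CR-fed mice of the first set lay below 0, and the 2 of the second at 0.25 and -0.067.

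**Figure D4:**
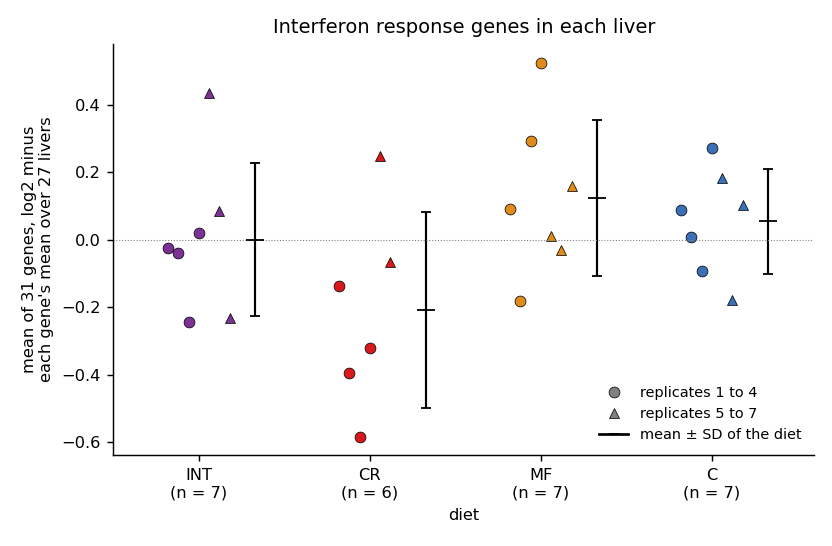
Mean over the 31 genes of the log2 intensity minus each gene's mean over all 27 livers (y axis) in each liver by diet (x axis), circles for replicates 1 to 4 and triangles for replicates 5 to 7, with the mean ± SD of each diet beside them. CR-fed mice lie lowest on average (-0.21), from CR replicate 3 at -0.58 to CR replicate 5 at 0.25, which lies within the ranges of the other diets.

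With diet means removed, the median Pearson's r over the 465 gene pairs was 0.55 across the 27 livers (standard error 0.082 from leaving out each liver in turn), and 461 pairs were positive. A member and a gene outside the set had a median of 0.019, with quartiles of -0.17 and 0.21, over 13572 such genes. These r are a description, since genes on an array share its RNA and its normalization. Without the 2 livers farthest from the median (CR replicate 5 and INT replicate 5) the median was 0.46, within replicates 1 to 4 it was 0.46 and within replicates 5 to 7 it was 0.63. The closest pairs were Gbp7 and Tap1 (0.90), Ifit1 and Ifit3 (0.89), Oasl2 and Usp18 (0.89), and Gbp3 and Gbp7 (0.87), and Psmb9 and Tap1 were seventh (0.84). Irf1 and Stat2 followed the others least, with r of 0.31 and 0.39 with the mean of the remaining genes, against 0.93 for Ifit3, 0.91 for Usp18 and 0.90 for Ifit1. Irf7 and Bst2, which ran against most of the set between diets, followed it within diets, with r of 0.69 and 0.57.

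**Figure D5:**
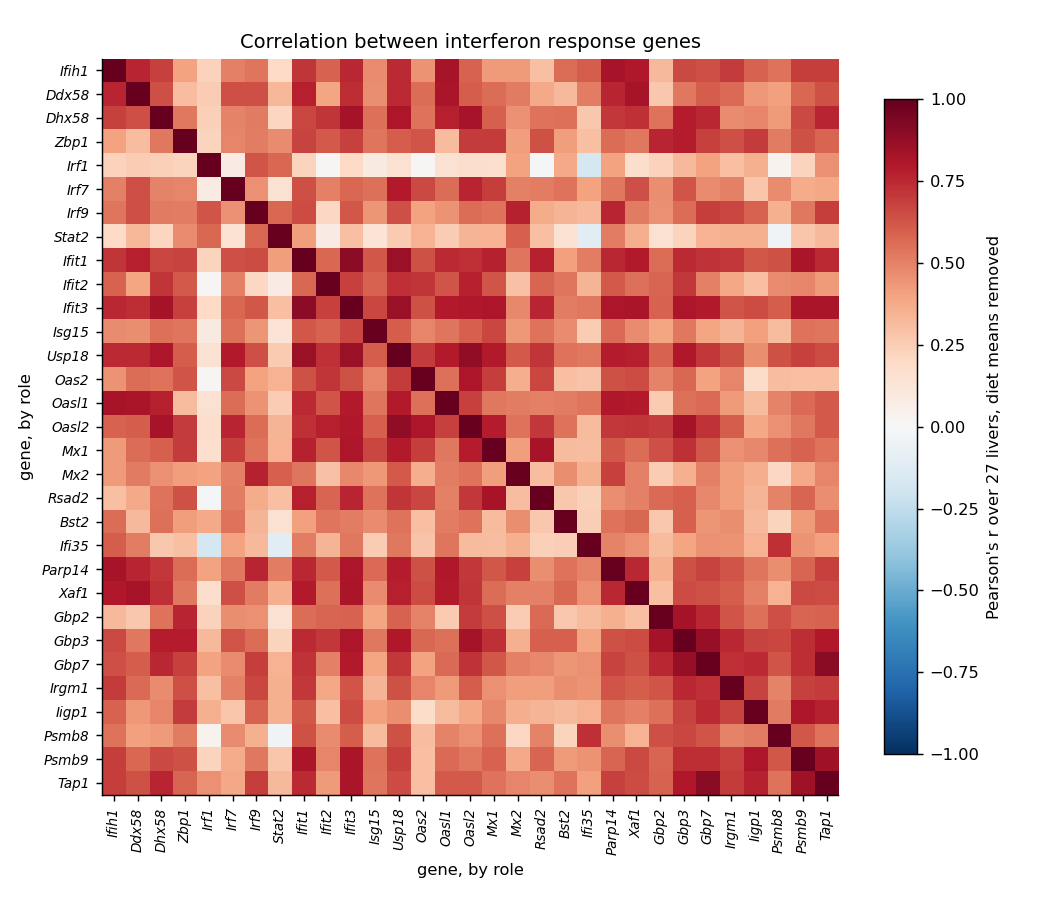
Pearson's r between the 31 genes over 27 livers with diet means removed (colour, from -1 to 1), genes in the order of their roles on both axes. Nearly all pairs are positive (461 of 465), and the pale rows and columns are those of Irf1 and Stat2.

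Pairs of known partners, or of a regulator and a target, were tested by permuting livers within diets (2-sided, 100000 permutations, p adjusted over the 6 pairs). The test asks only whether r differs from 0. Of all 465 pairs of the set, 461 were positive, with a median r of 0.55. A small p therefore does not set a pair of partners apart from other pairs of the set. Irf7 and Oasl2 gave r = 0.76 (p = 1e-05, the smallest this test can give, adjusted p = 6e-05) and rho = 0.70 (permutation p = 0.00011). The sensors Ifih1 and Dhx58 gave r = 0.68 (permutation adjusted p = 0.00224) and rho = 0.60 (adjusted p = 0.00729). Psmb8 and Psmb9 had r = 0.62 and rho = 0.58 (the same adjusted p values), although between diets only Psmb9 was called. Isg15 and Usp18 had r = 0.61 (permutation adjusted p = 0.00224) and rho = 0.44 (adjusted p = 0.0338), with r of 0.41 without the 2 livers farthest from the median of Isg15. Stat2 and Irf9 gave r = 0.57 and rho = 0.56 (permutation adjusted p = 0.00224 and 0.00729), 0.57 within replicates 1 to 4 and 0.51 within replicates 5 to 7. For Irf1 and Gbp2 no relation was detected (r = 0.23, permutation p = 0.219, and rho = 0.19, p = 0.358). Without the 2 livers farthest from the median of the first gene, r was 0.68 for Irf7 and Oasl2, 0.64 for Ifih1 and Dhx58, 0.63 for Psmb8 and Psmb9, and 0.55 for Stat2 and Irf9. Within replicates 1 to 4 and 5 to 7, r was 0.74 and 0.70 for Irf7 and Oasl2, 0.57 and 0.73 for Ifih1 and Dhx58, 0.75 and 0.44 for Psmb8 and Psmb9, and 0.52 and 0.79 for Isg15 and Usp18.

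Outside the set, the genes whose values followed its mean most closely over the 27 livers were Parp12 (r = 0.89), Herc6 (0.89), Rtp4 (0.87), Trim30a (0.87), Samd9l (0.86), Ddx60 (0.85), Uba7 (0.84) and Slc13a3 (0.83). The first 5 stood in the list of interferon pathway genes described next. Uba7 activates Isg15 for transfer to proteins, and Slc13a3 is a transporter of dicarboxylates. Between diets, Rtp4 was called in the 3 comparisons with CR-fed mice (log2 fold change -0.54 against C, -0.64 against MF and 0.63 for INT against CR, but 0.056 against C within replicates 5 to 7), Herc6 and Slc13a3 against MF (-0.45 and -0.64), and the other 5 in none.

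Of 115 further genes of the interferon pathway, 86 passed the intensity minimum. In CR-fed mice 9 were called against C (4 higher and 5 lower), which is 10.5% of them, against 17.5% of all genes. Against MF 15 were called (4 higher and 11 lower), 17.4% against 19.8% of all genes. Between INT and CR 11 were called (6 higher and 5 lower in INT), 12.8% against 15.0%. In each comparison the share was below that of all genes. The median log2 fold changes were -0.053, -0.12 and 0.013. Of 13 interferon genes themselves, 3 (Ifnk, Ifnab and Ifnl2) passed the minimum and 0 were called or had an unadjusted p under 0.05, and the others lay below the minimum or were not named alone. Of 9 receptor and kinase genes, 8 passed the minimum. Against C, 1 of these was called higher and 2 lower in CR-fed mice, and likewise against MF (17.5% and 19.8% of all genes called). In INT against CR, 3 were higher and 1 lower (15.0%). Among the receptors, 3 genes were called in all comparisons with CR-fed mice, with the same sign in both sets of arrays. That shared sign is in part fixed, since the genes were called on both sets together. Ifngr2, the second chain of the interferon gamma receptor, had means of 9.69 ± 0.22 in INT-fed, 9.16 ± 0.20 in CR-fed, 9.75 ± 0.20 in MF-fed and 9.66 ± 0.19 in C-fed mice (SD). The CR-fed mice lay below every MF- and C-fed mouse. It was lower in CR by 0.59 ± 0.11 against MF and 0.50 ± 0.11 against C (adjusted p = 0.000227 and 0.00141), within replicates 1 to 4 by 0.74 and 0.46 and within replicates 5 to 7 by 0.35 and 0.51. The ligand-binding chain Ifngr1 was higher in CR by 0.28 ± 0.06 against C and 0.25 ± 0.06 against MF (adjusted p = 0.0023 and 0.00631), within replicates 1 to 4 by 0.31 and 0.25 and within replicates 5 to 7 by 0.25 and 0.26. Ifnar1, a chain of the type I receptor, was lower in CR by 0.22 ± 0.06 against C and 0.21 ± 0.06 against MF (adjusted p = 0.007 and 0.0102), with -0.22 and -0.21 against C within the sets and -0.20 in both against MF. It had means of 8.25 in INT-fed, 7.99 in CR-fed, 8.20 in MF-fed and 8.21 in C-fed mice. Its partner Ifnar2 was called between INT and CR alone (0.14, adjusted p = 0.0456).

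Further along the pathway, Irf5, a factor activated by Toll-like receptors, was lower in CR-fed mice (-0.42 against both C and MF, adjusted p = 0.0317 and 0.0314). The receptor of double-stranded RNA Tlr3 and the adaptors Myd88 and Ticam1 were lower than in MF-fed mice only (-0.32, -0.45 and -0.33, adjusted p between 0.0255 and 0.0351), while Tlr7, which senses single-stranded RNA, was lower in INT than in CR (-0.80, adjusted p = 0.00789). In antigen processing, Tap2, the partner of Tap1, was lower in CR (-0.30 against C and -0.31 against MF), whereas Tapbp, which holds the empty class I molecule at that transporter, and Psme1, a proteasome activator, were higher (0.28 and 0.25 against C, adjusted p = 0.006 and 0.0109). The antiviral membrane protein Ifitm1 was higher in CR as well (0.24 against C, adjusted p = 0.0422). Cmpk2, a neighbour of Rsad2 that supplies nucleotides, and Lgals3bp were lower than in MF-fed mice (-0.60 and -0.53). Of the 7 negative regulators and the 4 chemokines limma called 0, and against MF 0 and 1 of them had an unadjusted p under 0.05, with Socs3 at -0.39 and Cxcl10 at -0.47 for CR against C, with standard deviations of 0.40 and 0.33 in CR-fed and 0.75 and 0.67 in C-fed mice.

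Some markers of other cells moved with the diets or with the set. Kupffer cell and macrophage markers (9 of 9 measured) had list means of 7.90 to 8.36 in INT-fed, 8.44 to 8.96 in CR-fed, 7.93 to 8.67 in MF-fed and 8.13 to 8.69 in C-fed mice. Of these 9, 5 were called lower in INT than in CR (6.62% of all genes), and higher in CR were 1 against C (Clec4f, 0.48; 8.46% of all genes) and 2 against MF (8.57%). Acute phase proteins were lower in CR-fed mice in 3 of 7 cases against both C and MF (9.05% and 11.2% of all genes), with Saa2 at -3.00 and -3.70. Of the 8 hepatocyte markers, 2 were called higher and 1 lower in CR against C (8.46% and 9.05% of all genes). Against MF, 3 were higher and 1 lower (8.57% and 11.2%), and in INT against CR, 1 was higher and 2 lower (8.37% and 6.62%). The 3 monocyte markers that passed the minimum were Ccr2, Plac8 and Fn1, with mean log2 values of 4.85, 6.44 and 12.60. Fn1 lay near the level of the hepatocyte marker G6pc (12.69), so this list may not follow monocytes alone. Within diets, r of the set's mean over the 27 livers was 0.69 with the mean of these 3 markers and 0.50 with the Kupffer list. It was 0.49 with 6 sinusoidal endothelial markers, 0.44 with 5 T cell markers, 0.41 with 5 conventional dendritic cell markers and 0.40 with 3 B cell markers. It was 0.25 with 3 plasmacytoid dendritic cell markers (0.48 without CR replicate 5 and INT replicate 5), 0.23 with acute phase proteins, 0.17 with 3 neutrophil markers, 0.15 with 2 NK cell markers (0.48 without those livers) and -0.51 with hepatocyte markers. For plasmacytoid dendritic cells, a main source of type I interferon, 3 of 4 markers passed the minimum. Their list means ran from 5.10 to 5.36 in CR-fed, from 5.12 to 7.05 in MF-fed and from 5.25 to 6.62 in C-fed mice. These 3 markers did not move as one. Their list mean averaged 5.36 in INT-fed and 5.85 in MF-fed mice, but the median log2 fold change between these diets was -0.026. Siglech, 1 of the 3, lay low on the array (4.76). Of 7 NK cell markers 2 and of 6 neutrophil markers 3 passed the minimum. The part of these cells in the results was not tested.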

How the data were processed

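Liver RNA was analysed by the authors on Affymetrix Mouse Gene 1.1 ST arrays, and the deposited values are log2 intensities per probe set after robust multiarray averaging (RMA) of all arrays together; the version is not given in the sources used here. That step brings arrays to a common distribution (array medians 5.21 to 5.27), so that values are relative within this set of livers. From these, probe sets naming 1 gene (21218 of 35556) were kept, with the one of highest mean value per gene (18820 genes, 18790 of them matched to the RefSeq gene table); the study's methods used another grouping of probes. Genes above an intensity of 20 on at least 5 arrays (13603) entered 1 linear model of the 4 diets over 27 arrays (limma 3.58.1, R 4.3.3, moderated variances), with Benjamini-Hochberg adjustment over all genes. Each mouse gave 1 array, and the number of arrays limits the precision.

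The set and the lists of pathway genes and markers were chosen with earlier results of these data known. Genes were named by rule: members called in a comparison (the 12 of smallest adjusted p in full), the 6 of largest and 3 of smallest spread between livers, 6 pairs, up to 4 called genes per pathway list, and the 8 genes most like the set's mean. Gbp7, Parp14 and the markers were named after their values were seen. Pearson's r was taken with diet means removed (Python 3.11.15). Alternatives covered the minimum, the scaling, the variance model, array weights, blocks, the array sets, the mean of all probe sets, fits of 2 diets, the analysis of variance and Tukey post-test of the methods, and leaving out each mouse.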

Additional observations from a re-analysis of the deposited data

Results flagged for a closer look

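In 6 of 128 groups of livers that were looked at (31 genes and the mean of the set, in each diet), 1 mouse lay far from the others of its diet, and chance alone marks about 1 in 20 groups. In INT-fed mice, replicate 5 was apart in Ifit1 at 8.46 (the next mouse lay at 7.28) and in Usp18 at 9.18 (next 8.30). In CR-fed mice, replicate 5 was apart in Ifit2 at 6.24 (next 5.66), and replicate 3 was the low one in Irf7 at 8.31 (next 9.21). In C-fed mice, Ifit1 reached 8.14 in replicate 4 (next 7.39), and Parp14 was lowest in replicate 6 at 7.75 (next 7.94). Leaving out CR replicate 3 raised the log2 fold change of Irf7 between CR and C to 0.88.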

How the results depend on the processing

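The counts of called genes (13 for CR against C, 13 for CR against MF, 11 for INT against CR, 13 over the 4 diets) moved by over 1.5 times in few settings. Within replicates 5 to 7 they were 1, 1, 2 and 0, where fewer mice enter. With the Tukey post-test of the methods, after Benjamini-Hochberg, they were 7, 7 and 6 between diets (13, 13 and 11 unadjusted). Calls over all 13603 genes fell with that test as well. They were 1231, 1455 and 1055 (2502, 2718 and 2264 unadjusted), against 2382, 2690 and 2039 in the main fit. Leaving out each mouse in turn gave 9 to 15, 12 to 17, 7 to 13 and 10 to 13, with the lowest count for INT against CR without CR replicate 3, and 0 in the comparisons without CR. For CR against C, the 9 came without CR replicate 2 (1942 of all genes) and the 15 without CR replicate 5 (2450). Within replicates 5 to 7, Parp14 turned to 0.044 between CR and MF (adjusted p = 0.929). The labels do not say what livers of the same replicate number share. Their deviations had r from -0.25 to 0.30, with 17 of 39 pairs above 0.1 and a median of 0.081 against -0.013 for other pairs. By average r, 12 of 27 livers were closest to those of their own replicate number. For the mouse number, 4 of 27 were, with a median of 0.0078 against -0.003. What lies behind this was not tested. With the replicate block, 13, 15 and 11 genes were called, beside 2410, 2654 and 2079 of all genes. All 37 called differences of single genes kept direction and call there, as under 8 other settings. The mouse number as a block lost 2 and fits of only the 2 diets 4. Of these 37, 7 were lost within replicates 1 to 4, 32 within replicates 5 to 7 and 9 without some mouse. In the methods' test, the fits and the set comparison the cause of lost calls was not tested. The median r of 0.55 was 0.4555 within replicates 1 to 4, 0.6316 within replicates 5 to 7 and 0.4551 without the 2 farthest livers, and 0.51 to 0.58 without each mouse. For Igtp and Irgm1 no pair value was possible, since Igtp shares its probe set with Irgm2.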
